A study of Mus musculus with 115 samples.

Results

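Slc9a2, Atp12a, Anxa13 and Cftr, 4 of the 45699 genes measured, were followed through prostate RNA-seq libraries of TRAMP mice. They were chosen by their measured values, as epithelial genes with on and off states that were set against Chga (a granule protein of neuroendocrine cells), Mki67 (a protein of dividing cells) and Tgm4 (a transglutaminase that prostate luminal cells secrete). The 115 libraries form 1 group, transgene-positive (TRAMP x WSB/EiJ) F2 mice, with 1 library per labelled mouse and no wild-type or untreated control. The study's methods describe fewer prostates than the table has libraries and do not say which were used, so all 115 were analysed. TRAMP mice carry SV40 T antigen under an androgen-responsive minimal probasin promoter, so the oncogene is expressed in prostate epithelium, and the F2 cross mixes TRAMP and WSB/EiJ alleles in every mouse. The labels give no age, tumor weight or histology. Per the study's methods, small prostates gave RNA from the ventral prostate, and the labels do not mark which, so tumor content and lobe cannot be told apart in these libraries.

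Fluid in the prostate lumen is set by proteins of the apical membrane of luminal cells. Slc9a2 (NHE2) exchanges sodium for protons there. Atp12a is the catalytic subunit of the non-gastric proton-potassium ATPase, which acidifies luminal fluid and needs a beta subunit. Cftr is the cyclic AMP-gated chloride and bicarbonate channel of many secretory epithelia. Anxa13 is an annexin, a calcium-dependent membrane-binding protein associated with apical vesicle traffic, and is no transporter. In neuroendocrine tumors of the prostate, luminal secretory genes are known to be low and granule proteins such as chromogranin A are high.

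The genes lie on different chromosomes in GENCODE M21 on GRCm38. Slc9a2 (ENSMUSG00000026062) is at chr1:40680574-40769273 on the plus strand, and no other gene shares its exons. Atp12a (ENSMUSG00000022229) is at chr14:56365068-56388550 on the plus strand, and 557 bases of its exons overlap Gm10873 on the other strand. Anxa13 (ENSMUSG00000055114) is at chr15:58341471-58389244 on the minus strand with no exon overlap, and this annotation classes it as a processed transcript although RefSeq lists a protein-coding gene. Cftr (ENSMUSG00000041301) is at chr6:18170687-18322768 on the plus strand, and 129 exon bases overlap Gm15592 on the other strand. The kit is not described as keeping strand, so reads in the overlaps with Gm10873 and Gm15592 cannot be assigned to 1 gene.

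The Cftr promoter is shown because Cftr was the only 1 of the 4 genes matched in the promoter table used, and it was also the gene near 0 almost throughout. The RefSeq window on GRCm38.p6 covers chr6:18170437-18170736 on the plus strand, from 250 bases before the start to 50 after it, and capitals mark the letters GGGCGG of the GC box.
Cftr: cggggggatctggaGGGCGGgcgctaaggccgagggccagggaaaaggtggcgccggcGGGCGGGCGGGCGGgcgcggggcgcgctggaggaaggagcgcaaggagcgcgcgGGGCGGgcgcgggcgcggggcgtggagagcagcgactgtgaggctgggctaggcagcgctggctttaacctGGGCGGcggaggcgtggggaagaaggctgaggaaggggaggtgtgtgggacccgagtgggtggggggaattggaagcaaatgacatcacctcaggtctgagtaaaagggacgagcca
The window is 71.3% G and C, against a median of 52.7% over 32851 promoter windows of the same length. GGGCGG occurred 6 times on the plus strand, in part overlapping, and 35.7% of all windows held it on either strand. The letters TATAAA of the TATA box, TGTTTAC of forkhead factors, AGAACA of the androgen receptor and AGATAA of GATA factors were searched on both strands and did not occur in this window. Nor did CAATAAA of Hoxb13, TGACGTCA of the cyclic AMP response element or GTTAAT of Hnf1.

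Levels were deposited as TPM, which is per transcript length and scaled to a fixed total within each library, and a gene was called off below 0.1 TPM and on at 1 TPM or more. Slc9a2 had a lowest, median and highest level of 0, 13.1 and 44.8 TPM over 115 libraries, and was on in 93 and off in 8. Atp12a ran from 0 through a median of 22.1 to 133 TPM, and was on in 79 and off in 28. Anxa13 ran from 0 through 21.1 to 117 TPM, and was on in 83 and off in 25. Atp12a and Anxa13 were therefore abundant in most libraries and nearly absent in most of the rest. Slc9a2 was more graded, at 5 TPM or more in 80 libraries and between the off and on limits in 14. Cftr had a median of 0.0100 TPM, was listed at 0 in 30 libraries, was off in 101 and was on in 1, labelled W1154, at 2.62 TPM. The name of the group as transporters lost in neuroendocrine tumors thus went against the data for Cftr, which was off in most libraries of either kind, and holds by function for Slc9a2 and Atp12a but not for Anxa13.

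The state calls of Atp12a and Anxa13 had few values near the on limit, but had values close to the off limit. For Atp12a the values next to the off limit were 0.0800 and 0.110 TPM and those next to the on limit were 0.640 and 1.17 TPM. For Anxa13 they were 0.0900 and 0.110 TPM at the off limit and 0.610 and 2.06 TPM at the on limit. Slc9a2 was the most graded, with 14 libraries between the limits and values of 0.0800, 0.120, 0.970 and 1.01 TPM beside them. The count of 8 libraries with Slc9a2 off accordingly moved to 17 with a limit of 0.5 TPM and to 3 when TPM was rescaled without the 20 most abundant genes. With the same rescaling the off count fell from 28 to 19 for Atp12a and from 25 to 19 for Anxa13. An off state in TPM is not specific to these genes: of 7767 genes with a median of at least 5 TPM, 424 were under 0.1 TPM in at least 1 library, 199 in at least 8 and 47 in at least 25.

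The first principal component of 14620 genes, computed without the 4 genes, carried 48.7% of the variance, and its values fell into a larger part of 79 libraries and a smaller part of 36. Chga was 0.0600 to 4.84 TPM in the larger part and 0.150 to 479 TPM in the smaller part, where 32 of 36 libraries were at 10 TPM or more. In bulk tissue, fewer cells of a type and less RNA per cell cannot be told apart. The 20 most abundant genes took 48.9% to 81.8% of a library's TPM, so every other level also moves with them. Seminal vesicle transcripts were high in 13 libraries, all of the larger part.

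In the larger part Slc9a2 was 1.25 to 44.8 TPM with a median of 17.0. In the smaller part it was 0 to 6.36 TPM with a median of 0.585, and 14 of 36 libraries still had it on. Atp12a was 0 to 133 TPM with a median of 56.6 in the larger part, and 0 to 20.8 TPM with a median of 0.0350 in the smaller part. It was on in 77 of 79 and in 2 of 36 libraries. Anxa13 was 0.0300 to 117 TPM with a median of 31.8 in the larger part, and 0 to 34.0 TPM with a median of 0.0400 in the smaller part. It was on in 78 of 79 and in 5 of 36. Slc9a2 thus kept a measurable level in more libraries of the smaller part than Atp12a or Anxa13 did. Cftr went the other way at very low levels: it was at 0.1 TPM or more in 12 of 36 libraries of the smaller part, at most 0.580 TPM, and in 2 of 79 of the larger part. The ranges of all 4 genes overlapped between the parts, and the parts were not tested against each other because their states chose the genes.

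**Figure D1:**
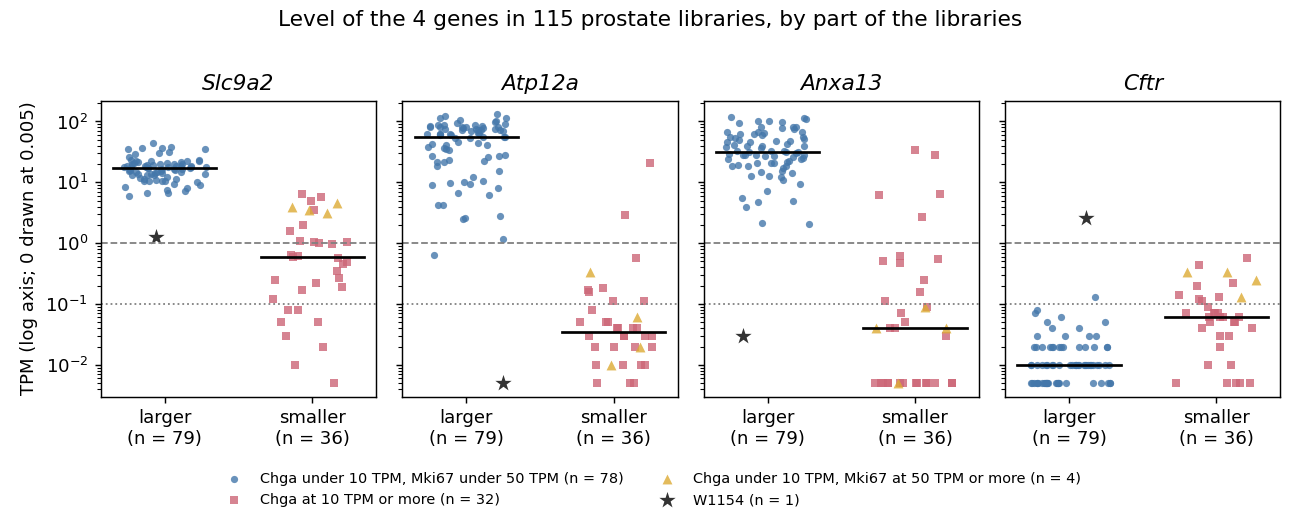
TPM of each gene (log axis, 0 drawn at 0.005) in the 79 libraries of the larger part and the 36 of the smaller part. Each point is a library, bars are medians, the dashed line is 1 TPM and the dotted line 0.1 TPM. Slc9a2, Atp12a and Anxa13 have medians of 17.0, 56.6 and 31.8 TPM at left against 0.585, 0.0350 and 0.0400 TPM at right, while Cftr lies under 1 TPM in all libraries but W1154 (star).

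The on states were ordered. Each of the 79 libraries with Atp12a on also had Anxa13 and Slc9a2 on, and no library had Atp12a on with Anxa13 off. Of the 83 libraries with Anxa13 on, 82 had Slc9a2 on, and Slc9a2 in the other one was 0.350 TPM. In the opposite direction, 7 libraries had Slc9a2 on with Atp12a off, and 9 had Slc9a2 on with Anxa13 off. The commonest pattern, Slc9a2, Atp12a and Anxa13 on and Cftr off, held in 78 libraries, of which 76 were of the larger part. All 4 genes were off in 6 libraries, all of the smaller part, with Chga at 34.7 to 291 TPM, and no library had all 4 on.

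Against Chga the states changed between 4.84 and 21.1 TPM, an interval in which no library lay. Below it, in 83 libraries, Slc9a2 was on in all, at 1.25 to 44.8 TPM, while Atp12a was off in 4 and Anxa13 in 5. Above it, in 32 libraries, Slc9a2 was off in 8 and on in 10. Atp12a was off in 24 of these 32 and on in 2, and Anxa13 was off in 20 and on in 5. Within the high-Chga libraries more Chga did not go with more genes off: of the 7 at 100 TPM or more, Slc9a2 was on in 4, and of the 25 between 10 and 100 TPM it was on in 6.

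Against Mki67 the states were counted in bins that do not follow the larger and smaller parts. In the 8 libraries under 1 TPM of Mki67, Slc9a2, Atp12a and Anxa13 were all on, at no less than 8.50, 4.21 and 2.06 TPM. In the 37 libraries with Mki67 from 10 to 100 TPM, Slc9a2 was on in 29, Atp12a in 18 and Anxa13 in 21. In the 15 libraries at 100 TPM or more, Slc9a2 was on in 1 and Atp12a and Anxa13 in 0.

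**Figure D2:**
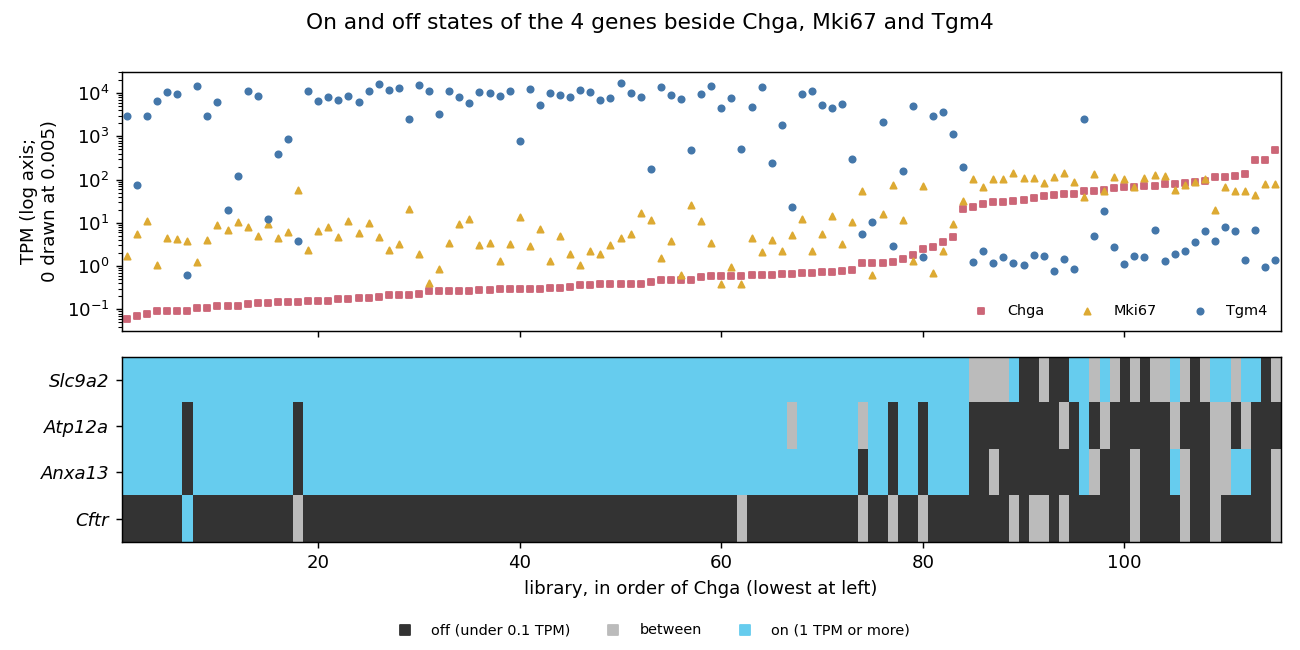
Upper panel: TPM of Chga, Mki67 and Tgm4 (log axis) in each of 115 libraries, in order of Chga from left to right. Lower panel: the state of each gene in the same libraries, off under 0.1 TPM, between, or on at 1 TPM or more. Slc9a2 is on in all 83 libraries at left with Chga under 10 TPM. Among them Atp12a is off (dark) in 4 and Anxa13 in 5.

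Tgm4 gave the closest match to Atp12a. Atp12a was on in 0 of 34 libraries with Tgm4 under 10 TPM and in 4 of 6 from 10 to 100 TPM. Its median was 8.01 TPM in the 11 libraries with Tgm4 from 100 to 1000 TPM, 45.8 TPM in the 41 from 1000 to 10000 TPM and 87.0 TPM in the 23 above. Within the larger part r of log2(TPM + 1) was 0.961 and rho 0.964, and within the smaller part r was 0.912 and rho 0.746. These relations helped to choose the gene and are given without a test. Slc9a2 and Anxa13 did not follow Tgm4 in that way: in the 11 libraries with Tgm4 from 100 to 1000 TPM the median of Anxa13 was 59.1 TPM, against 29.7 TPM in the 23 with the most Tgm4. For Slc9a2 the median was 9.95 TPM in those 11 libraries and 19.2 TPM in those 23. The highest Slc9a2 level, 44.8 TPM in W4403, stood beside 2901 TPM of Tgm4, and W4183 had 36.3 TPM of Slc9a2 with 19.5 TPM of Tgm4 and 1.17 TPM of Atp12a.

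**Figure D3:**
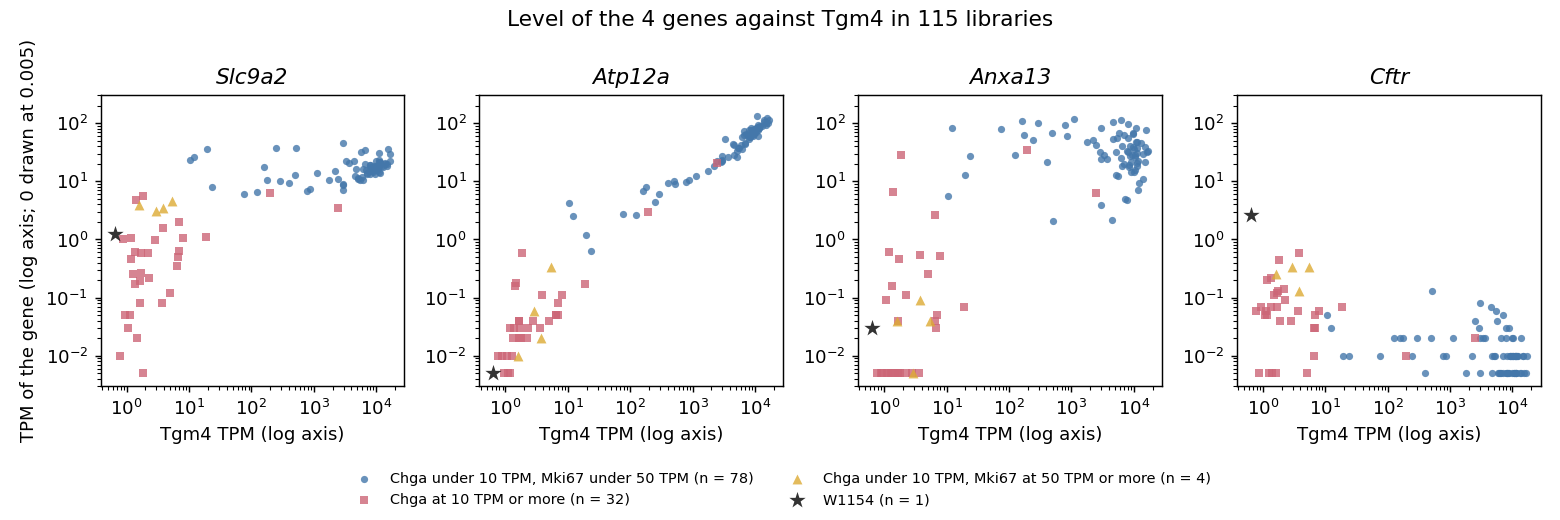
TPM of each gene against TPM of Tgm4, both on log axes, in 115 libraries, marked by Chga and Mki67 level. Atp12a rises with Tgm4 from under 0.1 TPM to 133 TPM, Slc9a2 and Anxa13 are on wherever Tgm4 is 100 TPM or more, and Cftr stays low throughout.

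Some libraries had Anxa13 off, and Atp12a off or under 1 TPM, without high Chga. In W1790, W1118, W1050 and W1915 Chga was 0.150 to 2.55 TPM with Mki67 at 54.7 to 74.0 TPM. Atp12a was 0.0100, 0.0200, 0.330 and 0.0600 TPM in them, and Anxa13 was 0.0400, 0.0900, 0.0400 and 0 TPM. Slc9a2 remained on, at 3.89, 3.54, 4.60 and 3.11 TPM, below all but 1 library of the larger part. Cftr was 0.250, 0.130, 0.340 and 0.330 TPM. The epithelial genes were not low in these 4 libraries: Epcam was 216 to 302 TPM, Krt8 369 to 630 TPM and Cdh1 52.1 to 89.6 TPM. Of the other neuroendocrine markers, Insm1 was 0.110 to 1.91 TPM, and Chgb was 20.1 TPM in W1915 and 0.120 to 0.310 TPM in the others. Tgm4 was 1.60 to 5.43 TPM, so Atp12a and Anxa13 were low beside Tgm4 and not beside Chga here.

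The library W1154 stood apart from all others. Slc9a2 was 1.25 TPM, Atp12a 0, Anxa13 0.0300 and Cftr 2.62 TPM, with Chga at 0.0900, Mki67 at 3.80 and Tgm4 at 0.640 TPM. It is in the larger part by the principal component but had the lowest Slc9a2, Atp12a, Anxa13 and Tgm4 of that part. Epcam was 74.8 TPM. Counts over gene lists and pairs of the 4 genes in the larger part that W1154 moved by over 1.5 times or in direction are given with and without it.

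A few high-Chga libraries kept the genes on. In W4419, with 21.1 TPM of Chga, Slc9a2 was 6.36, Atp12a 2.91 and Anxa13 34.0 TPM, and Tgm4 was 195 TPM. In W4517, with 53.3 TPM of Chga, they were 3.52, 20.8 and 6.22 TPM, and Tgm4 was 2469 TPM. These were the only 2 libraries with Chga at 10 TPM or more that had Atp12a on, and they also had the highest Tgm4 of the smaller part. The pattern was broken in the other high-Chga libraries with Anxa13 on: in W4437, W899 and W4120 Anxa13 was 27.9, 6.53 and 2.68 TPM, Atp12a was 0.580, 0.160 and 0.05 TPM, and Tgm4 was 1.41 to 6.50 TPM. Anxa13 could thus be on where Atp12a and Tgm4 were low.

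The 6 libraries labelled W5000 to W5005 had little Anxa13 without losing the other genes. Anxa13 was 2.13, 3.96, 4.92, 5.53, 4.77 and 2.06 TPM in W5000 to W5005 in order, and 7.19 to 117 TPM in the other 72 libraries of the larger part apart from W1154. Slc9a2 was 8.50 to 37.8 TPM and Atp12a 4.21 to 65.9 TPM in the 6, within the range of the others. Mki67 was 0.390 to 0.930 TPM, and transcripts of haploid germ cells were present: Prm2, a protamine, was 6.90 to 47.6 TPM and Tnp1, a transition protein, 4.20 to 75 TPM, against at most 0.320 and 0.680 TPM in the other 73 libraries of the larger part. The part of these transcripts in the Anxa13 values was not tested.

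Other genes had on states in almost the same libraries, counted over all 115. Tcaf3, a protein associated with TRP channels, was on in exactly the 79 libraries with Atp12a on. Rnase1, Gm53, Clic5 and Tbx3os1 matched Atp12a in 113 libraries each, against a median of 79 over all genes that averaged 1 TPM or more. For Anxa13, Tmem238l matched in 115 of 115 libraries, and Atp6v1c2 (a subunit of the vacuolar proton pump), Bmpr1b (a BMP receptor), Slco4c1 (an organic anion transporter) and Adgrg7 in 114 each, against a median of 83. For Slc9a2 the closest matched in 111 libraries: Bcl2l14, Slc44a4 (a choline transporter-like protein), Pkp3 (a desmosomal plakophilin), Entpd3 and Sfn, against a median of 93. Cftr was on in 1 library, so no such match was sought. These counts describe the libraries, since the same split of 79 and 36 underlies them all.

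Within the larger part, the level of each gene was compared with those of the 13414 other genes tested. Slc9a2 correlated positively with 1960 genes (14.6%) and negatively with 371 (2.77%) at a Benjamini-Hochberg adjusted p under 0.05, by permuting the libraries (two-sided). Atp12a correlated positively with 1818 genes (13.6%) and negatively with 4155 (31.0%). Anxa13 correlated positively with 10842 genes (80.8%) and negatively with 90 (0.671%). The Anxa13 figure depended on the scaling. The median r over all genes was 0.499 in TPM, 0.217 when TPM was rescaled without the 20 most abundant genes and -0.0112 with median-of-ratios scaling, under which 1985 genes were positive and 1633 negative. The medians were 0.0855, 6.35e-04 and -0.0624 for Slc9a2 and -0.125, -0.0465 and -0.152 for Atp12a in the same order. A positive r with Anxa13 in TPM is therefore the background, and each r is best read against the median of its gene. Counts from the gene lists below are likewise best read against the shares given here for each gene.

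**Figure D4:**
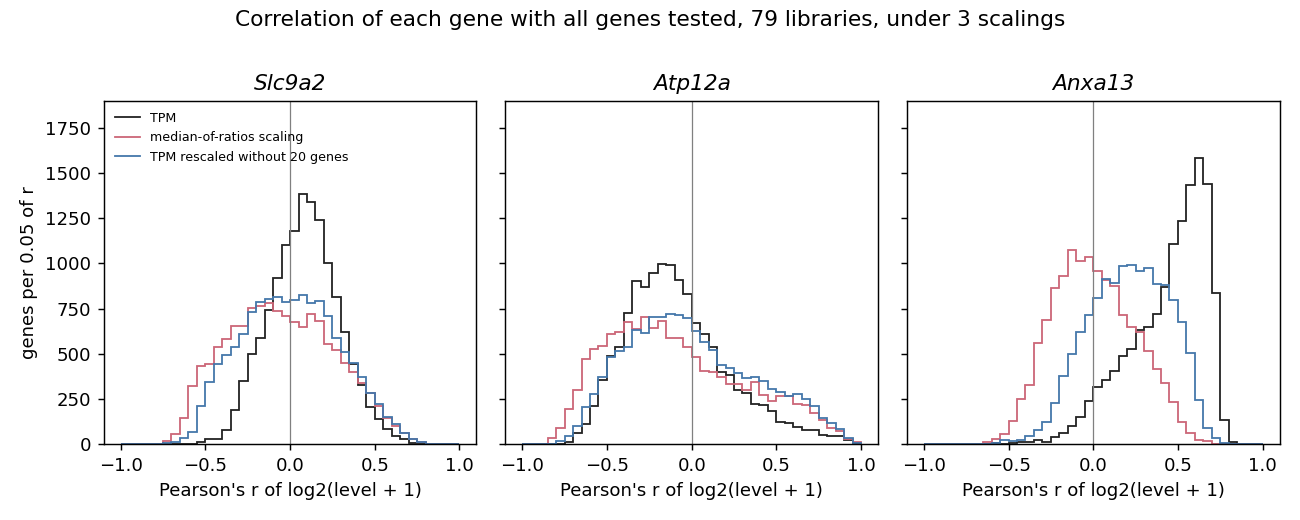
Number of genes per 0.05 of Pearson's r with each gene over 79 libraries, under 3 scalings of the same table. The Anxa13 distribution has a median of 0.499 in TPM and of -0.0112 with median-of-ratios scaling, and those of Slc9a2 and Atp12a move less.

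Atp12a was most alike a set of genes of the Tgm4 kind. Glb1l3, a galactosidase-like gene, ran from 0 through a median of 166 to 432 TPM, with r = 0.973 and rho = 0.940. C1rb, a complement protease, had r = 0.963 and rho = 0.949, Gsdma, a gasdermin, r = 0.960 and rho = 0.946, and 9530053A07Rik r = 0.959 and rho = 0.955. The permutation p of each was 1e-05, the smallest that 100000 resamples give, with an adjusted p of 9.23e-05, and without the 2 farthest libraries r was 0.951 to 0.972. Tgm4 helped to choose Atp12a and had r = 0.961 with it. Genes that vary with Tgm4, in either direction, were thus bound to correlate with Atp12a. These p-values, and all others given for Atp12a in the larger part, are therefore no separate support for a relation. The same holds for the counts of genes correlated with Atp12a. The negative end was led by Aqp5, a water channel of secretory glands, with r = -0.793, Scnn1b, a subunit of the epithelial sodium channel, with r = -0.780, and BC064078 with r = -0.764, each with an adjusted p of 9.23e-05. Aqp5 ran from 0.0400 through 0.630 to 42.8 TPM and Scnn1b from 0.120 through 0.770 to 11.7 TPM, so both were low in most of these libraries. All 7 kept their sign under both other scalings where they were measured and without W1154.

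Slc9a2 was most alike 9530002B09Rik (29.3 to 8368 TPM), with r = 0.844 and rho = 0.831. Copz2, a coatomer subunit of vesicle traffic, had r = 0.808, Aldh3a2, a fatty aldehyde dehydrogenase, r = 0.785, Ctnnal1, an alpha-catenin-like protein, r = 0.780, and Dcxr, a xylulose reductase, r = 0.768. Each had a permutation p of 1e-05 and an adjusted p of 4.63e-04. Without W1154 r was 0.708 to 0.810, and without the 2 farthest libraries 0.689 to 0.821. In the smaller part, which did not choose them, Copz2 had r = 0.874, Dcxr 0.890 and Aldh3a2 0.799, each with an adjusted p of 1.01e-04 over 36 libraries. There 35.5% of 15512 genes correlated positively with Slc9a2 and 22.7% negatively, so passing the test in that part is common. Ctnnal1 did not, with r = -0.163 and an adjusted p of 0.414. At the negative end, Klk1b21 (r = -0.580) and Wfdc18 (r = -0.574) weakened to -0.320 and -0.393 without the 2 farthest libraries, W1154 and W4078. Over all genes W1154 mattered too: without it Slc9a2 correlated with 621 genes positively and 620 negatively, and without the 13 libraries rich in seminal vesicle transcripts with 823 and 125. Without W5000 to W5005 they were 3386 and 408.

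Anxa13 was most alike Asah1, the lysosomal acid ceramidase, with r = 0.822 and rho = 0.775, then Rnf180 (r = 0.818), Plscr1, a phospholipid scramblase (r = 0.815), Tmem159 (r = 0.814) and Krt19, a luminal keratin (r = 0.813). Each had a permutation p of 1e-05 and an adjusted p of 1.93e-05, and without the 2 farthest libraries r was 0.743 to 0.810. With median-of-ratios scaling, where the median gene is near 0, they remained at 0.651 to 0.729, and without W5000 to W5005 at 0.728 to 0.798. The most negative genes were Mrgpra3 (r = -0.599), Prm2 (r = -0.585) and Tnp1 (r = -0.583). Their levels lay at W5000 to W5005, and without those libraries they fell under the mean of 1 TPM needed for a test.

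**Figure D5:**
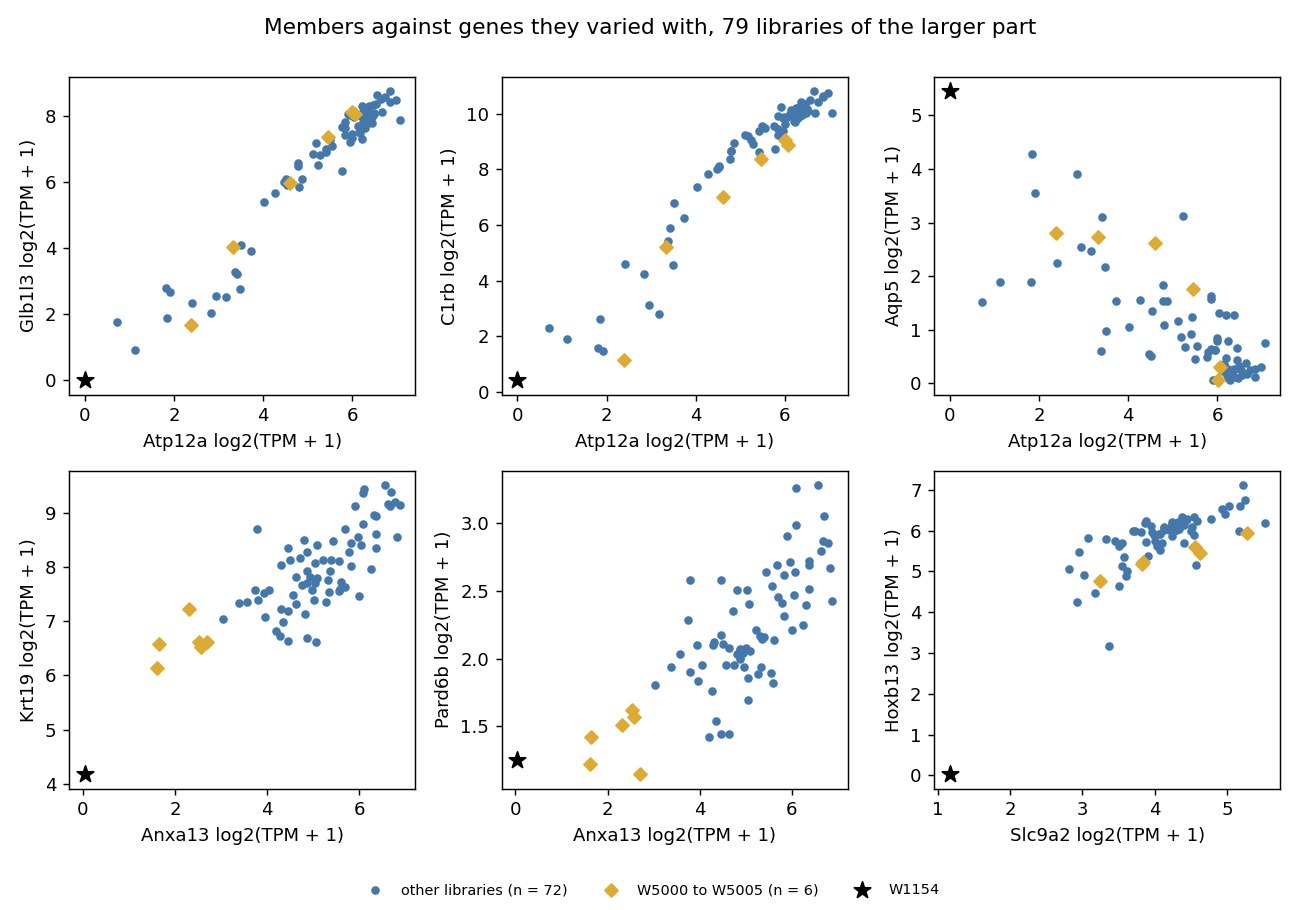
Level of a gene named in the text against Atp12a, Anxa13 or Slc9a2, both as log2(TPM + 1), in 79 libraries, with W1154 and W5000 to W5005 marked. Glb1l3 follows Atp12a with r = 0.973 and C1rb with r = 0.963, Aqp5 runs against it with r = -0.793, and W5000 to W5005 lie at the low end of Anxa13.

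Cftr correlated positively with 123 genes (0.917%) and negatively with 5416 (40.4%), but 77 of its 79 values were under 0.1 TPM. Without W5000 to W5005 the counts were 65 and 151, and with Spearman's rho they were 1403 and 567. No gene is named from these counts for that reason.

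The relatives of the 4 genes differed from them. Among sodium-proton exchangers, Slc9a8 was on in all 115 libraries, at 1.64 to 18.8 TPM. Slc9a3, the exchanger of intestine and kidney tubule, was on in 3 libraries, and Slc9a4, a neighbour of Slc9a2 on chromosome 1, in 6. Slc9a5 had the reverse pattern to Slc9a2: it was 0.110 to 1.33 TPM in the larger part and 0.780 to 11 TPM in the smaller, where it was on in 35 of 36. Of 3 exchangers tested against Slc9a2 in the larger part, 2 correlated positively, Slc9a8 (r = 0.390, adjusted p = 0.0173) and Slc9a9 (r = 0.334, adjusted p = 0.0316), and neither passed without W1154 (adjusted p = 0.550 and 0.108).

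Among proton-potassium and sodium-potassium pumps, Atp4a, the catalytic subunit of the gastric pump, had a median of 0.470 TPM, and its beta subunit Atp4b was on in 0 libraries. Atp1b1, a beta subunit of the sodium pump, was 35.9 to 139 TPM in the larger part and 6.33 to 76.1 TPM in the smaller. Of 11 subunits tested in the larger part, 0 correlated positively with Atp12a and 7 negatively, with a median r of -0.380 against -0.125 for all genes. Of the small regulatory subunits of the sodium pump, Fxyd2 had r = -0.566 and Fxyd6 r = -0.557, each with an adjusted p of 9.23e-05.

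Among 22 genes of chloride, bicarbonate and fluid secretion, 2 correlated positively with Atp12a and 14 negatively, with a median r of -0.444, and the count was 3 and 14 under both other scalings. The positive ones were Car2, a carbonic anhydrase that supplies protons and bicarbonate (4.59 to 178 TPM, r = 0.893), and Slc26a3, a chloride-bicarbonate exchanger (0 to 17.8 TPM, r = 0.848), each with an adjusted p of 9.23e-05. These p-values are no separate support either, because Tgm4 helped to choose Atp12a. With Slc9a2 3 of the 22 correlated positively, led by the chloride transporter Clcn3 (r = 0.476, adjusted p = 0.00101), and 3 negatively, led by Aqp5 (r = -0.486) and the potassium channel Kcnn4 (r = -0.467). With Anxa13 15 were positive and 0 negative, a share below the 80.8% of all genes, led by the potassium channel Kcnk1 (r = 0.678).

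Among annexins, Anxa4 was 24.4 to 445 TPM in the larger part and 1.54 to 290 TPM in the smaller. Of 12 tested, 10 correlated positively with Anxa13, with a median r of 0.580 against 0.499 for all genes and a share close to the 80.8% of all genes. With median-of-ratios scaling 4 were positive and 1 negative. Anxa4 (r = 0.747), Anxa5 (r = 0.700) and Anxa3 (r = 0.687) led, each with an adjusted p of 1.93e-05, and remained at 0.589, 0.457 and 0.503 with median-of-ratios scaling. With Atp12a 1 annexin or annexin partner was positive and 7 were negative, led by Anxa1 (r = -0.657) and S100a11 (r = -0.635). Of 7 ABCC transporters, the family of Cftr, 3 correlated positively with Slc9a2, with Abcc4 first (r = 0.603, adjusted p = 4.63e-04), and 5 with Anxa13, with Abcc12 first (r = 0.647, adjusted p = 1.93e-05). Without W1154 1 was positive and 2 were negative with Slc9a2. The 5 of 7 with Anxa13 are a share below the 80.8% of all genes. With Atp12a 1 was positive and 3 were negative, led by Abcc9 (r = -0.452).

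Genes of apical traffic and of junctions were mostly positive with Anxa13, as were 80.8% of all genes, whose median r was 0.499. Of 21 apical traffic and scaffold genes, 21 correlated positively with Anxa13 with a median r of 0.537, led by Slc9a3r2, a scaffold of apical exchangers (r = 0.722), Rab8a (r = 0.712) and ezrin, Ezr (r = 0.670). Of 27 junction and polarity genes 25 did, with a median r of 0.651, led by Pard6b (r = 0.762), Epcam (r = 0.743) and Cldn7 (r = 0.730). With median-of-ratios scaling these counts were 9 and 12, and the medians 0.181 and 0.258 against -0.0112 for all genes. With Atp12a 6 of the 21 traffic genes were positive and 8 negative, led by the GTPase Rab25 (r = 0.649). Of the 27 junction genes 4 were positive and 5 negative, or 4 and 8 without W1154, and Ehf, an epithelial ETS factor held in that list, had r = 0.792 while Cldn10, a paracellular channel claudin, had r = -0.760. With Slc9a2 5 and 4 of these lists were positive and 0 negative, and without W1154 0 and 2.

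Of 14 epithelial and prostate transcription factors tested, 5 correlated positively with Slc9a2 and 1 negatively, or 3 and 0 without W1154. Hoxb13, a homeobox factor of prostate epithelium, had r = 0.768 and Spdef, an ETS factor of secretory cells, r = 0.684, and without W1154 they had r = 0.685 and 0.624. With Atp12a 5 were positive and 5 negative: Gata3 had r = 0.645, while Tfcp2l1 had r = -0.664, each with an adjusted p of 9.23e-05. With Anxa13 13 were positive, with a median r of 0.368 that is below the 0.499 of all genes, 80.8% of which were positive. Without W1154 7 were positive, and with median-of-ratios scaling 2. The highest were Rest, a repressor of neuronal genes (r = 0.618), which was at -0.0204 with median-of-ratios scaling, and Klf5 (r = 0.573). Foxa1, a pioneer factor of prostate epithelium, was on in 32 of 36 libraries of the smaller part and Hoxb13 in 32 of 36. In most of that part these factors thus did not share the off state of Atp12a and Anxa13. Hoxb13 was near 0 in the rest of it, at 0.04, 0.05, 0.15 and 0.07 TPM in W1790, W1118, W1050 and W1915. In W1154 Hoxb13 was 0.02 TPM, and Anxa13 was off in each of these named libraries.

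Rank correlation had the sign of r for all 21, 22 and 23 genes that these lists gave for Slc9a2, Atp12a and Anxa13 as the 3 largest by r past the threshold. The size of rho ran from 0.0373 to 0.700, from 0.204 to 0.886 and from 0.163 to 0.756 in the same order. The weakest for Slc9a2 thus had almost no rank correlation. Without the 2 farthest libraries r fell to 0.5 times its value or less for 4 of the Slc9a2 genes, Slc9a8, Fxyd2, Abcc3 and Ezr, and for 0 of the others.

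Marker genes of other cell types gave the following counts, to be read against those over all genes. Over all genes 80.8% were positive with Anxa13 (median r 0.499), and with Atp12a 13.6% were positive and 31.0% negative. The shares with Slc9a2 were 14.6% and 2.77%. With median-of-ratios scaling 1985 of 13414 genes were positive with Anxa13 and 5514 negative with Atp12a. Leaving out Mki67, which helped to choose the genes, 5 of 5 proliferation genes correlated positively with Anxa13, with a median r of 0.581, or 4 of them with median-of-ratios scaling. As a description, Mki67 had r = 0.624, or 0.482 without W5000 to W5005. Genes that vary with Mki67 tend to share its r, so the proliferation counts are no separate support even without Mki67. With Atp12a 0 of the 5 were positive and 2 negative, or 0 and 5 with median-of-ratios scaling. The 6 seminal vesicle genes had a median r of -0.190 with Slc9a2, -0.108 with Atp12a and 0.0260 with Anxa13. Of 6 smooth muscle and stroma genes, 1 correlated positively and 3 negatively with Atp12a, or 0 and 3 without W1154, and all 3 leukocyte genes tested were negative (median r -0.478) under each scaling. The basal genes gave 1 positive and 0 negative of 4. The 7 epithelial markers were all positive with Anxa13 (median r 0.703) and 5 were with median-of-ratios scaling. Neuroendocrine markers were mostly too low for a test in the larger part, where 2 of 9 were tested and 1 was negative with Atp12a, or 2 without W1154. Leaving out Tgm4, which helped to choose the genes, 2 of 6 luminal secretory genes were positive and 3 negative with Atp12a. With Slc9a2 3 of the 6 were positive, or 2 without W1154. These counts too are no separate support, since genes that vary with Tgm4 can remain among the 6.

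Among themselves the genes were only loosely related in the larger part. Their states over all libraries helped to choose them, so the p-values of these pairs in either part are no separate support for a relation. Of the 6 pairs, Slc9a2 and Atp12a had r = 0.425 (permutation p = 1.70e-04, or 0.00329 after adjustment), and rho was 0.444 with a permutation p of 8.00e-05, but r was 0.257 without the 2 farthest libraries, and without W1154 r was 0.304 with an adjusted p of 0.0608. Slc9a2 and Anxa13 had r = 0.0568 (adjusted p = 0.764), and Atp12a and Anxa13 r = 0.0569 (adjusted p = 0.705), and without W1154 these were -0.195 and -0.113. Of the 3 pairs without Cftr, that of Slc9a2 and Atp12a alone passed the test. The pairs with Cftr had r of -0.477 with Slc9a2 (adjusted p = 0.0578), -0.390 with Atp12a (adjusted p = 0.00132, or r = -0.259 without W1154) and -0.481 with Anxa13 (adjusted p = 1.93e-05), on Cftr values nearly all under 0.1 TPM. The pair of Slc9a2 and Cftr rested on 1 library: without W1154 r was 0.128, and rho over all 79 was 0.0395. These p-values are adjusted over the genes tested against the gene of the pair that is listed first in the opening, and over those tested against Cftr that of Slc9a2 and Cftr was 0.0369. In the smaller part Slc9a2 and Anxa13 had r = 0.627 (adjusted p = 6.58e-04 over the genes tested against Slc9a2 and 0.0112 over those tested against Anxa13). Both were on in 4 libraries of that part and both off in 8. Slc9a2 and Atp12a had r = 0.447, which passed over the genes tested against Slc9a2 (adjusted p = 0.00894) and not over those tested against Atp12a (adjusted p = 0.232). In that part 0.258% of genes were positive and 0.00645% negative with Atp12a, and 1.71% and 0.219% with Anxa13. Atp12a and Anxa13 had r = 0.594 there (adjusted p = 0.275 and 0.123), with Atp12a on only in W4419 and W4517.

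Genes within 1 Mb gave no common pattern. Of 7 tested around Slc9a2, 2 correlated positively, Mfsd9 (r = 0.565) and Il1r2 (r = 0.449), against 14.6% of all genes. Of 36 around Atp12a, 5 were positive and 10 negative, shares close to the 13.6% and 31.0% of all genes. The highest r were those of Pck2, the mitochondrial PEP carboxykinase (r = 0.782), Dcaf11 (r = 0.504) and Ipo4 (r = 0.491). Of 19 around Anxa13, 17 were positive, against 80.8% of all genes, with a median r of 0.580, and Atad2 (r = 0.697), Trmt12 and Rnf139 (r = 0.694 each) led. Of 12 around Cftr, 0 were positive and 6 negative, against 40.4% negative over all genes. Cav2 (r = -0.580, rho = -0.191) came first, on Cftr values that were nearly all under 0.1 TPM.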

How the data were processed

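Total RNA of snap-frozen bulk prostate tissue was depleted of ribosomal RNA and sequenced. Per the labels and the study's methods, the authors mapped reads with Bowtie2 2.2.5 to an allele-specific GRCm38 transcriptome and quantified genes with RSEM 1.2.20 (CASAVA 1.8.2 for base calls), and deposited TPM in 1 table of 115 libraries. The methods state a minimum number of read pairs per library, but TPM keeps no read number of a gene or library, so no counting interval is given. The annotation is not given in the sources used here. Of 45699 gene identifiers 45136 had a symbol.

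Members and gene lists were chosen with earlier results of these data known. Libraries were split by a 2-normal mixture on the first principal component without the 4 genes (BIC fell by 196). Within the larger part, Pearson's r of log2(TPM + 1) was tested by 100000 permutations and adjusted by Benjamini-Hochberg over all genes averaging 1 TPM or more, with rank correlation and limma 3.58.1 (R 4.3.3) as alternatives. The rank correlation was run with random seeds 20, 21 and 22, which called 1103, 1118 and 1114 genes for Slc9a2. The third was kept after the counts were seen, because the digits of the first and second are also those of library names and were barred from the text for that reason. The correlation test was checked on data made with known answers. P-values measure the spread between mice of 1 group. Named genes were the 4 members, Chga, Mki67, Tgm4, for Slc9a2, Atp12a and Anxa13 the 5 most positive and 3 most negative genes, the 5 with the most alike on state, and up to 3 by size of r or close relatives from each list and within 1 Mb. Other genes, among them Slc9a5, Atp1b1, Epcam and Foxa1, were named after their values were seen. Libraries were called rich in seminal vesicle transcripts at 10.0% or more of the highest summed level. Some genes that this rule names are not reported here. Promoters were RefSeq windows, and Cftr had an entry of the 4.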

Additional observations from a re-analysis of the deposited data

How the results depend on the processing

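The state counts of Atp12a, Anxa13 and Cftr stayed within 1.5 times of their values under each limit, scaling and omission tried, and 0 libraries had all 4 genes on under each. Slc9a2 was off in 17 libraries with a limit of 0.5 TPM, 22 with 1 TPM and 3 with TPM rescaled without 20 genes. All 4 were off in 15, 21 and 0 under the same settings. Genes correlated with Slc9a2 numbered 6271 with median-of-ratios scaling (2490 positive, 3781 negative), 5222 with rescaled TPM (2625 and 2597), 1114 with Spearman's rho, 948 without the libraries rich in seminal vesicle transcripts, 4044 in residuals after 3 principal components, 1241 without W1154 and 3794 without W5000 to W5005, against 2331. For Atp12a they numbered 10340 with a filter at a mean of 0.1 TPM and 3118 in residuals, against 5973. The split was 3484 positive and 3820 negative with rescaled TPM. For Anxa13 they numbered 3618 with median-of-ratios scaling, 6211 with rescaled TPM (5914 and 297) and 289 in residuals, against 10932. For Cftr they numbered 1970 with Spearman's rho, 1489 in residuals and 216 without W5000 to W5005, against 5539, with 604 from median-of-ratios scaling (304 and 300). The pair of Slc9a2 and Atp12a lost its call in residuals (r = 0.144), without W1154 (0.304) and without the libraries with either gene under 1 TPM (0.261). Slc9a2 and Anxa13 had a negative r with median-of-ratios scaling (-0.189), rescaled TPM (-0.0478), Spearman's rho (-0.145), without W1154 and without libraries under 1 TPM (-0.195 in both), and passed in the smaller part (0.627). Slc9a2 and Cftr passed with median-of-ratios scaling (-0.309), rescaled TPM (-0.406), residuals (-0.350) and without W5000 to W5005 (-0.512), and were positive with Spearman's rho (0.0395), without W1154 (0.128) and in the smaller part (0.156). Atp12a and Anxa13 were negative with Spearman's rho (-0.127), without W1154 (-0.113) and without libraries under 1 TPM (-0.126). Atp12a and Cftr lost their call in residuals (-0.297) and in the smaller part (-0.154), and Anxa13 and Cftr with Spearman's rho (-0.191) and in the smaller part (-0.248). The causes were not tested. W1154 and W5000 to W5005 were left out after the data were seen. Cftr was on in 1 library, so no value could be had without the libraries with it under 1 TPM. No paired analysis was possible because every library belongs to the same group. The study's methods give a minimum of read pairs per library, but TPM holds no read number of a gene, so no counting error is given for low values.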
